A study of Homo sapiens with 30 samples.

Results

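Human small airway epithelial (SAE) cells, which line the narrow distal branches of the lung, were compared after 24 h with titanium dioxide nanobelts (TiO2, flat crystalline fibres of the mineral) at 100 ug/ml and after 24 h without particles. The comparison was defined by its labels, dose and time, and was chosen with earlier results of these data known. It used 6 of the 30 arrays of the study, 3 exposed and 3 unexposed. It was made over all 11963 genes that the Affymetrix array could name, each read on the probe set with the highest mean over the 30 arrays. Further contrasts asked how the result differed from that at the lower dose, with the other particle and at the earlier time.

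The study exposed SAE cells to TiO2 nanobelts or to multi-walled carbon nanotubes (MWCNT, nested tubes of carbon) at 10 or 100 ug/ml, or to neither, for 1 or 24 h, with 3 biological replicates in each of 10 groups. The groups used here are the controls at 24 h (0 ug/ml), TiO2 at 100 ug/ml for 24 h, TiO2 at 10 ug/ml for 24 h, MWCNT at 100 ug/ml for 24 h, and the controls and TiO2 at 100 ug/ml for 1 h. Every group shared the purchased cells, the growth medium and the plating of freshly trypsinised cells in flasks, to whose medium the particles were added. RNA came from cells that were still attached after a wash, so detached cells were not measured. The labels do not say whether the replicates came from separate donors, and the p-values then measure the spread between these cultures only.

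Several signalling systems that airway epithelial cells use in contact with particles leave a mark in mRNA. The ERK kinase cascade, switched on by growth factor receptors, induces transcription factors and also its own brakes, the dual-specificity phosphatases and the Sprouty and SPRED proteins. The aryl hydrocarbon receptor (AhR) is a ligand-activated transcription factor that induces enzymes of foreign compound oxidation, and the metal-sensing factor MTF1 induces metallothioneins, small proteins that bind zinc and copper.

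Values are log2 expression, so a difference of 1 is a doubling, and levels of different probe sets cannot be set against each other. The 30 arrays had medians from 7.1529 to 7.2051. The median SD over genes was 0.0988 in the 24 h controls and 0.0734 after TiO2 at 100 ug/ml, in a range of 0.0593 to 0.1011 over the 10 groups. Replicate 1 of the controls lay farther from its group mean than the other arrays used here at 24 h, with a root mean square deviation of 0.1369. Mitosis genes (28 of 28), DNA replication genes (33 of 33), 9 of 13 basal cell markers and 6 of 14 epithelial markers lay above the median of the table, 7.1788. So did 6923 of all 11963 tested genes, a larger share than that of the epithelial markers. KRT7, KRT8 and KRT18, keratins of simple epithelia, averaged 12.12, 11.52 and 12.76 in the controls, but KRT19, another, read 5.93, 6.05 and 5.80. Of the markers of other cells that the cultures could hold, 1 of 15 for immune cells, 4 of 12 for fibroblasts, 5 of 10 for alveolar epithelium, 1 of 10 for endothelium and 1 of 8 for ciliated cells lay above that median. SCGB1A1, the secretory protein of club cells, averaged 4.41, and the leukocyte antigen PTPRC 3.43. KRT14, a keratin of basal cells, was also low, at 3.83.

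The comparison with the 24 h controls asked which transcripts stood apart a day after the higher dose. Higher genes included 12 of 19 that ERK signalling induces, 4 of 8 AhR targets, 4 of 10 genes for metallothioneins and zinc transport, and the drug exporter ABCC3. Lower genes included the channel ANO2, the transporter SLC1A1, the gap junction gene GJA1, 5 of 11 keratins, 6 of 27 amino acid stress genes and 7 of 23 interferon-stimulated genes. In all 1577 genes changed (limma, adjusted p under 0.05), 13.2% of those tested, with 514 higher (4.30%) and 1063 lower (8.89%). Most differences were small: their median size was 0.2601, with medians of 0.3243 for the higher and -0.2298 for the lower genes, and 29 genes passed a 1.5-fold difference, 16 higher and 13 lower. The median over all genes was -0.0307. Less RNA per cell and fewer cells of a kind cannot be told apart in such bulk samples.

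The number of calls rests on the spread being estimated from all 10 groups. With the 6 arrays alone, 16 genes were called, 11 higher (ETV5, IER3, HES1, ABCC3, CHI3L1, SPRED2, VGLL4, SLCO2A1, CTLA4, LBH and CD80) and 5 lower (AQP3, CACNA2D3, ABAT, SLC1A1 and ANO2). Of the 137 called genes that the naming rule selected, 126 were not called with the 6 arrays alone, which applies to nearly every gene named below and is not repeated. The split of calls also moved with the scaling of the arrays, to 444 higher and 359 lower after cyclic loess and to 598 higher and 739 lower after centring each array on its median. Leaving out 1 array left 884 calls without TiO2 replicate 1, 718 without TiO2 replicate 3 and 876 without control replicate 1.

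**Figure D1:**
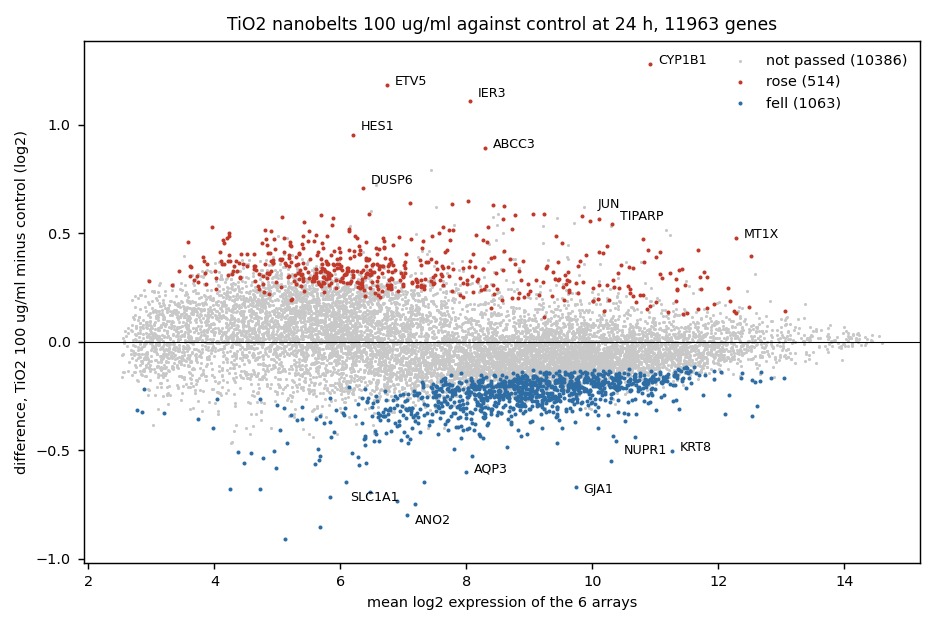
Each point is 1 of 11963 genes, with its mean log2 expression over the 6 arrays on the x axis and the difference TiO2 100 ug/ml minus control at 24 h (log2) on the y axis. Red points rose (514) and blue points fell (1063), and CYP1B1, ETV5 and IER3 lie highest among the labelled genes and ANO2 lowest.

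Of 19 measured feedback inhibitors and ERK-induced genes, 12 rose, 0 fell and 7 did not pass, a share of 63.2% called against 13.2% of all genes, with a median difference of 0.3375 against -0.0307. Left out in turn, the 6 arrays gave 8 to 11 of the 19, and the 6 arrays alone gave 3. The list was written with earlier results of these data known.

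IER3, an early response gene that modulates ERK activity and cell survival, read 7.48, 7.51 and 7.53 in the controls and 8.80, 8.61 and 8.43 after TiO2. All 3 exposed arrays lay well above all 3 controls, which were almost equal. The difference was 1.11 ± 0.08 (SE, n = 3 against 3, adjusted p = 5.54e-09), a 2.15-fold rise. ETV5, an ETS factor downstream of ERK, read 6.19, 6.13 and 6.12 in the controls and 7.43, 7.29 and 7.27 after TiO2. Again there was no overlap, and the exposed arrays were the only ones of the pair above the median of the table. Its rise was 1.18 ± 0.10 (adjusted p = 2.45e-08, 2.27-fold), while the other ETV5 probe sets, both dim, stood at 0.32 and 0.19.

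DUSP6, the phosphatase that inactivates ERK itself, read 5.84, 6.03 and 6.15 in the controls and 6.94, 6.74 and 6.47 after TiO2. The groups did not overlap, although the exposed arrays were more spread than the controls and all of these values were below the median of the table. DUSP6 rose by 0.71 ± 0.13 (adjusted p = 0.00228), and its other probe sets stood at 0.89 and 0.37. SPRED2, a membrane inhibitor of the step from Ras to Raf, read 8.15, 8.37 and 8.33 against 8.96, 8.84 and 8.92, without overlap. SPRED2 rose by 0.63 ± 0.08 (adjusted p = 9.19e-05) on a bright probe set, with dim others at -0.09 and -0.01. SPRY4, a Sprouty inhibitor of receptor signalling, rose by 0.49 ± 0.12 (adjusted p = 0.0117), from controls between 5.92 and 6.05 to 6.39, 6.55 and 6.48. These values of SPRY4 were below that median too.

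PHLDA1, a growth factor-induced regulator of survival, rose by 0.53 ± 0.13 (adjusted p = 0.0127), with other probe sets from 0.20 to 0.30. Its call was lost without TiO2 replicate 1 (0.4687, adjusted p = 0.0548) and without control replicate 2 (0.4350, adjusted p = 0.0553). The remaining members that rose, given to complete the list, were the phosphatases DUSP1 (0.39 ± 0.06) and DUSP4 (0.37 ± 0.10), the ETS factor ETV4 (0.36 ± 0.10), SPRY1 (0.34 ± 0.07), SPRY2 (0.28 ± 0.09) and the sphingosine kinase SPHK1 (0.25 ± 0.07). ETV4 and SPRY1 averaged below the median of the table in both groups. DUSP7 stood at -0.22 ± 0.08 (adjusted p = 0.0557) and MYC at 0.06 ± 0.08, and neither passed. Upstream, 0 of 10 genes for the EGF receptor, its ligands and their sheddases passed. The receptor EGFR itself stood at 0.62 ± 0.32 (adjusted p = 0.192), where control replicate 1 read 8.09 and the other controls 10.36 and 10.23. Its other bright probe set stood on the opposite side, at -0.19 ± 0.05, and its dim ones from 0.12 to 0.19.

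**Figure D2:**
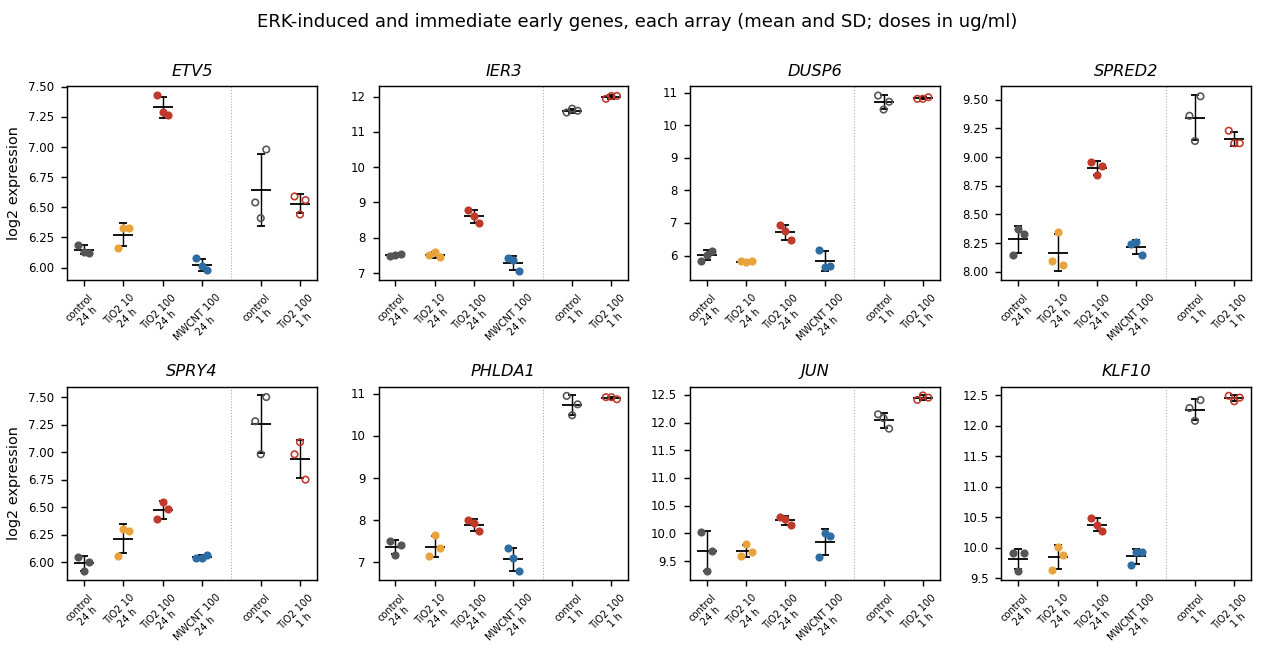
Log2 expression of 8 ERK-induced and immediate early genes on each array (points), with the group mean and SD (bars), in the 24 h groups and, right of the dotted line, the 1 h control and TiO2 100 ug/ml groups. The 3 arrays with TiO2 at 100 ug/ml for 24 h lie above the 24 h controls for all 8 genes. For every gene but ETV5 the 1 h arrays lie higher than any 24 h array shown.

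Among 24 immediate early transcription factors and regulators, 6 rose, 1 fell and 17 did not pass (29.2% called, median 0.1824). IER3 belongs to both lists. JUN, a subunit of the AP-1 factor, read 10.03, 9.32 and 9.69 in the controls and 10.30, 10.26 and 10.15 after TiO2. The exposed arrays were all above the controls, narrowly so for control replicate 1, and JUN rose by 0.56 ± 0.12 (adjusted p = 0.00561, other probe sets 0.24 to 0.45). Its partner FOS read 6.08, 6.14 and 5.86 against 6.63, 6.51 and 6.38, all below the median of the table, and rose by 0.48 ± 0.11 (adjusted p = 0.00937). KLF10, a zinc finger factor that TGF-beta induces, read 9.91, 9.62 and 9.92 against 10.49, 10.37 and 10.28. These groups did not overlap either, and KLF10 rose by 0.57 ± 0.10 (adjusted p = 0.00122).

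JUNB, another AP-1 subunit, rose by 0.35 ± 0.12 at an adjusted p of 0.0498, close to the threshold, with all values below the median of the table. Its call was lost without any 1 TiO2 array and without control replicates 1 and 2 (adjusted p 0.075 to 0.14). ZFP36, which destabilises cytokine mRNAs, rose by 0.24 ± 0.07. The member that fell was SRF, the serum response factor, from 8.84, 8.78 and 8.68 to 8.42, 8.55 and 8.44, a fall by 0.29 ± 0.06 (adjusted p = 0.0047), with a dim other probe set at 0.08. EGR1, EGR3 and NR4A1, growth factor-induced genes, stood at 0.21 ± 0.08, 0.29 ± 0.17 and 0.22 ± 0.10 and did not pass.

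Of 8 measured AhR targets, 4 rose, 0 fell and 4 did not pass (50% called, median 0.2597), and the count was 2 without control replicate 1. CYP1B1, a cytochrome P450 that oxidises polycyclic compounds and steroids, read 9.30, 10.81 and 10.74 in the controls and 11.62, 11.54 and 11.52 after TiO2. The 3 exposed arrays were almost equal and above every control, and control replicate 1 was far below the other controls. CYP1B1 rose by 1.28 ± 0.24 (adjusted p = 0.00228, 2.43-fold) with its other bright probe sets at 1.42 and 1.27. Without control replicate 1 the difference was 0.7873 (adjusted p = 0.00392). TIPARP, an ADP-ribosyltransferase that restrains the receptor, read 9.86, 10.12 and 10.14 against 10.63, 10.62 and 10.50. With no overlap it rose by 0.54 ± 0.08 (adjusted p = 0.000292).

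CYP1A1, the classical AhR-induced oxidase, read 5.85, 6.07 and 6.16 in the controls and 6.38, 6.58 and 6.31 after TiO2. All of these values are below the median of the table, and CYP1A1 rose by 0.40 ± 0.10 (adjusted p = 0.0112). The call was lost without TiO2 replicate 2 (0.3179, adjusted p = 0.0569) and without control replicate 1 (0.3098, adjusted p = 0.0667). NQO1, a quinone reductase that AhR and the antioxidant factor NRF2 both induce, rose by 0.28 ± 0.08 (adjusted p = 0.0213). Without TiO2 replicate 1 it stood at 0.2146 (adjusted p = 0.109) and without control replicate 1 at 0.1965 (adjusted p = 0.123). The receptor AHR did not pass, at 0.01 ± 0.09.

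ABCC3, an exporter of conjugated organic anions, had the smallest adjusted p of the whole comparison. It read 7.93, 7.86 and 7.77 in the controls and 8.75, 8.71 and 8.77 after TiO2, so the gap between the groups was several times their spread. Its rise was 0.89 ± 0.05 (adjusted p = 1.42e-10, 1.85-fold), and its other probe set stood at 0.66. ABCC3 was counted among NRF2 targets, of which 4 of 25 rose, 1 fell and 20 did not pass, with a median of -0.0043. This was 20% called against 13.2% of all genes. The transcription factor gene itself, NFE2L2, rose by 0.31 ± 0.07 (adjusted p = 0.00656) and thioredoxin, TXN, by 0.16 ± 0.05 (adjusted p = 0.0391), a call that TXN lost without any 1 TiO2 array and without control replicates 1 or 2 (adjusted p 0.0786 to 0.102). HMOX1 and GCLM, typical NRF2 targets, stood at -0.06 ± 0.06 and 0.00 ± 0.06, and the cystine transporter SLC7A11 fell by 0.32 ± 0.06 (adjusted p = 0.00228). The count of 4 became 2 without TiO2 replicate 1 or without control replicate 1.

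Called metallothioneins were MT1X, MT1G, MT2A and MT1H. The promoters of the 3 called members that the RefSeq table holds are shown because the metal response element, the letters that MTF1 binds, can be read in them. Each line gives the 250 bases before the start of the gene on the + strand of GRCh38.p14, and capitals mark matches of TGCACNC or TGCGCNC on either strand. MT2A lies at chr16:56608334-56608583, MT1H at chr16:56669564-56669813 and MT1X at chr16:56682220-56682469.

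MT2A: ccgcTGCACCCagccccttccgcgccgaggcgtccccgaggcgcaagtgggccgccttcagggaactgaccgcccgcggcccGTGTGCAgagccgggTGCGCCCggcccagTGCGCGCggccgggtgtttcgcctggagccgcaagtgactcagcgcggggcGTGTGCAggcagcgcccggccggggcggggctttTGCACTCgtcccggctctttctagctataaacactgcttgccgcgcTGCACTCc
MT1H: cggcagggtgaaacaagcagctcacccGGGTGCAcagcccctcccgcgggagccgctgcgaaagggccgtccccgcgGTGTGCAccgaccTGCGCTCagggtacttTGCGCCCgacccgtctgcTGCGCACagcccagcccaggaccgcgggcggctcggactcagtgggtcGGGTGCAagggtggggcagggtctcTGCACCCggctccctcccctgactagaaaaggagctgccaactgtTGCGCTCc
MT1X: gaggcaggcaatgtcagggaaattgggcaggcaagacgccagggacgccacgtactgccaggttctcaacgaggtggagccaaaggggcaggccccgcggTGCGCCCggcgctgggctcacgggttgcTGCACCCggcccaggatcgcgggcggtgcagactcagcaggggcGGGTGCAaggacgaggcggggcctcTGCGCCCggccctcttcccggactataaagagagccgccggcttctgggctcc

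MT2A holds 7 matches, MT1H 8 and MT1X 4, none of which overlap. At least 1 match stands in 24.8% of the 35116 promoters of the table over the same window, and in 31.1% of those of the tested genes, so a match is a description of these letters. MT1G was not matched in the table. The same window was also read for other elements. The xenobiotic response element, which AhR binds, stood in 0 of the 3 promoters available for the 4 called AhR targets, against 5.7% of tested genes. The AP-1 element stood in 0 of the 8 promoters available for the 12 called ERK genes, against 4.67% of tested genes. With shares this low, 0 is the usual count in so few promoters, so these counts decide nothing.

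MT1X read 11.69, 12.27 and 12.16 in the controls and 12.65, 12.49 and 12.40 after TiO2. Control replicate 1 was the lowest array, as for CYP1B1, and the groups did not overlap. MT1X rose by 0.48 ± 0.11 (adjusted p = 0.00632, other probe set 0.52) and MT1G, which read 11.29, 11.55 and 11.54 against 12.03, 11.81 and 11.81, by 0.42 ± 0.08 (adjusted p = 0.00318). Without control replicate 1 MT1X stood at 0.3035 (adjusted p = 0.0423). MT2A rose by 0.39 ± 0.09 (adjusted p = 0.00926), a call lost without control replicate 1 (0.2634, adjusted p = 0.0652). MT1H rose by 0.34 ± 0.10 (adjusted p = 0.0355), and stood at 0.1856 (adjusted p = 0.229) without control replicate 1, at 0.2644 (adjusted p = 0.147) without TiO2 replicate 1 and at 0.3506 (adjusted p = 0.0631) without TiO2 replicate 2.

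Of the 10 measured genes for metallothioneins and zinc transport, 4 rose, 0 fell and 6 did not pass (40% called, median 0.2054), and 2 rose without control replicate 1. Metallothionein genes are near-identical copies and their probe sets can bind each other's transcripts, so the 4 are not separate evidence. The zinc exporter SLC30A1, also a target of MTF1, stood at -0.07 ± 0.07 and did not pass.

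**Figure D3:**
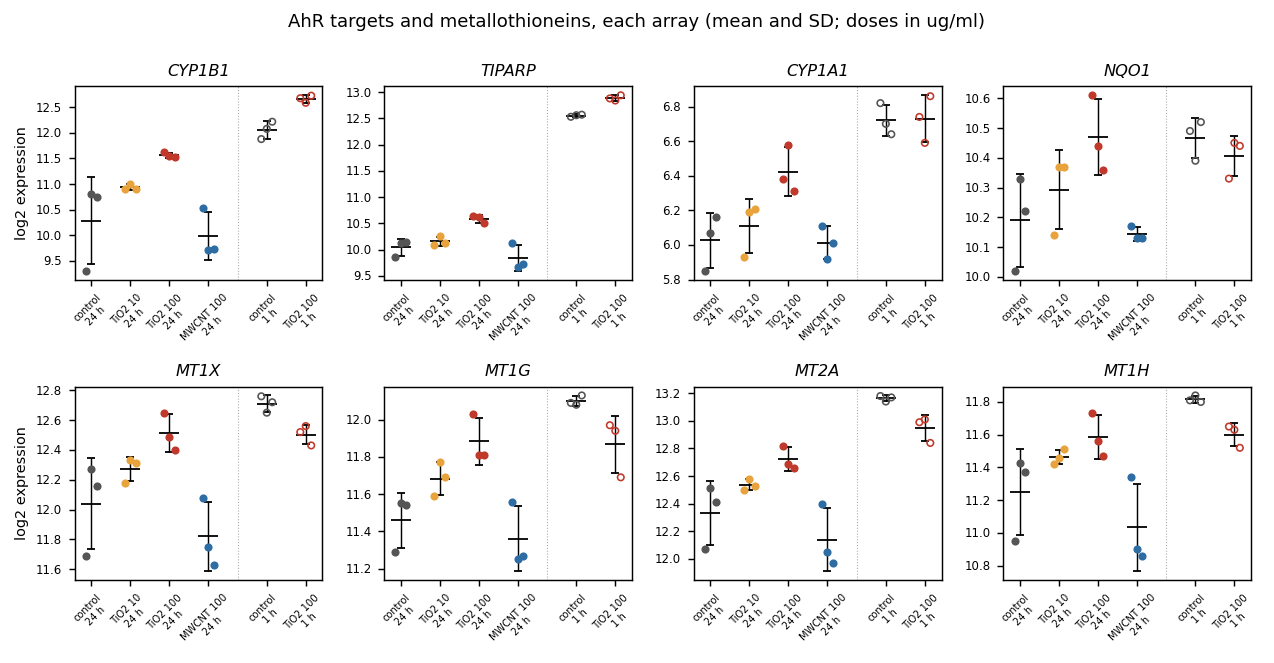
Log2 expression of 4 AhR targets (top) and 4 metallothioneins (bottom) on each array (points), with group mean and SD (bars), in the 24 h groups and, right of the dotted line, the 1 h groups. TiO2 at 100 ug/ml lies above the control at 24 h for all 8 genes, control replicate 1 is the lowest 24 h control for each, and at 1 h the 4 metallothioneins are lower with TiO2.

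Among Notch and BMP targets 2 of 19 rose and 17 did not pass. Their share called, 10.5%, was below the 13.2% of all genes, and their median was -0.0492. HES1, a repressor that Notch induces, read 5.65, 5.89 and 5.64 in the controls and 6.63, 6.59 and 6.81 after TiO2, all below the median of the table. HES1 rose by 0.95 ± 0.10 (adjusted p = 5.13e-06, 1.94-fold), without overlap, and its other bright probe set stood at 0.49 and the dim one at 0.01. ID1, an inhibitor of differentiation factors, rose by 0.47 ± 0.16 at an adjusted p of 0.0491, and this call was lost without control replicate 1 (0.2262, adjusted p = 0.31) and without any 1 TiO2 array (adjusted p 0.0667 to 0.172). HEY1, the other classical Notch target, stood at -0.06. VGLL4, a competitor of YAP for TEAD factors, read 9.06, 8.90 and 8.86 against 9.52, 9.55 and 9.50. These groups were far apart for their spread, and VGLL4 rose by 0.59 ± 0.05 (adjusted p = 8.99e-08, other probe set 0.57).

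Genes of secreted and matrix proteins moved in both directions. Of 32 genes of matrix, TGF-beta and collagen, 8 rose, 2 fell and 22 did not pass (31.2% called, median 0.0546). The 8 became 3 without TiO2 replicate 1, TiO2 replicate 3 or control replicate 1, and 5 without TiO2 replicate 2 or control replicate 2. TGFBI, a matrix protein induced by TGF-beta, rose by 0.31 ± 0.05 (adjusted p = 0.000559), from 9.48, 9.40 and 9.34 to 9.72, 9.75 and 9.67. Its groups did not overlap, and its call did not depend on 1 array. THBS1, which activates latent TGF-beta, rose by 0.57 ± 0.17 (adjusted p = 0.0308). TiO2 replicate 1 was its highest array, at 9.19 against 8.81 and 8.58, and without it THBS1 stood at 0.4012 (adjusted p = 0.159). Its call was also lost without TiO2 replicate 2 or control replicates 1 or 2. TAGLN, an actin-binding protein, rose by 0.59 ± 0.18 (adjusted p = 0.0353), a call lost without any 1 of 5 arrays (adjusted p 0.0569 to 0.111). FBN1, the main protein of microfibrils, fell by 0.33 ± 0.05 (adjusted p = 0.000241).

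CHI3L1, a chitinase-like glycoprotein of inflamed and remodelled tissue, read 6.80, 6.78 and 6.76 in the controls and 7.53, 7.38 and 7.35 after TiO2. It rose by 0.64 ± 0.10 (adjusted p = 0.000349, 1.56-fold) without overlap, with other probe sets at 0.91 and 0.13. CHST15, a sulfotransferase of chondroitin chains, rose by 0.64 ± 0.12 (adjusted p = 0.00287). NRP1, a co-receptor for VEGF and semaphorins, rose by 0.63 ± 0.13 (adjusted p = 0.00331), but its dim probe sets stood at 0.27 and -0.08. TFPI, the inhibitor of tissue factor, rose by 0.47 ± 0.08 (adjusted p = 0.000776). EPOR, the erythropoietin receptor, rose by 0.59 ± 0.11 on 1 probe set (adjusted p = 0.00284), whereas its others stood from -0.05 to 0.10.

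Of the genes of the naming rule that rose, ZBTB38, which binds methylated DNA, and DYNC1LI2, a dynein subunit, rose by 0.65 ± 0.18 and 0.58 ± 0.18, and here too control replicate 1 was low, at 7.12 and 8.85. Without it they stood at 0.3553 (adjusted p = 0.148) and 0.2293 (adjusted p = 0.256), and both calls were also lost without TiO2 replicate 1 or 2, and that of DYNC1LI2 without TiO2 replicate 3. Among 19 matrix metalloproteinases and their inhibitors, 3 rose and 1 fell while 15 did not pass (21.1% called against 13.2% of all genes). Only 1 rose without TiO2 replicate 1. MMP2, a gelatinase, rose by 0.43 ± 0.09 (adjusted p = 0.00319). MMP28, an epithelial metalloproteinase, read 6.13, 6.19 and 5.98 in the controls and 5.29, 5.49 and 4.95 after TiO2, a fall by 0.86 ± 0.09 (adjusted p = 5.36e-06).

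In the list of 32 channels and solute transporters fixed for the comparison, AQP3 fell, ABCC3 rose and 30 did not pass, a share of 6.25% called against 13.2% of all genes. Single genes of this kind outside the list fell further, and were named for their size. ANO2, a calcium-gated chloride channel, read 7.59, 7.36 and 7.43 in the controls and 6.84, 6.57 and 6.56 after TiO2. All exposed arrays were below all controls, and ANO2 fell by 0.80 ± 0.06 (adjusted p = 2.45e-08), a 1.74-fold difference. SLC1A1, a glutamate and cysteine transporter, read 7.28, 7.22 and 7.32 against 6.54, 6.52 and 6.55. Both groups were tight and far apart, and SLC1A1 fell by 0.73 ± 0.10 (adjusted p = 0.00015), with a dim other probe set at -0.03. CACNA2D3, a calcium channel subunit, fell by 0.65 ± 0.10 (adjusted p = 0.000363), from 7.53, 7.69 and 7.74 to 7.02, 7.09 and 6.92.

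AQP3, the water and glycerol channel of basal epithelial cells, read 8.37, 8.36 and 8.17 in the controls and 7.61, 7.76 and 7.73 after TiO2. It fell by 0.60 ± 0.08 (adjusted p = 4.78e-05), but its other probe sets, both bright, stood at -0.10 and 0.12, so the fall is that of 1 probe set. TNNC1, a troponin subunit, fell by 0.75 ± 0.10 (adjusted p = 4.78e-05), NPR3, the clearance receptor for natriuretic peptides, by 0.55 ± 0.08 (adjusted p = 0.00026) and ARG2, the mitochondrial arginase, by 0.49 ± 0.08 (adjusted p = 0.000811).

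**Figure D4:**
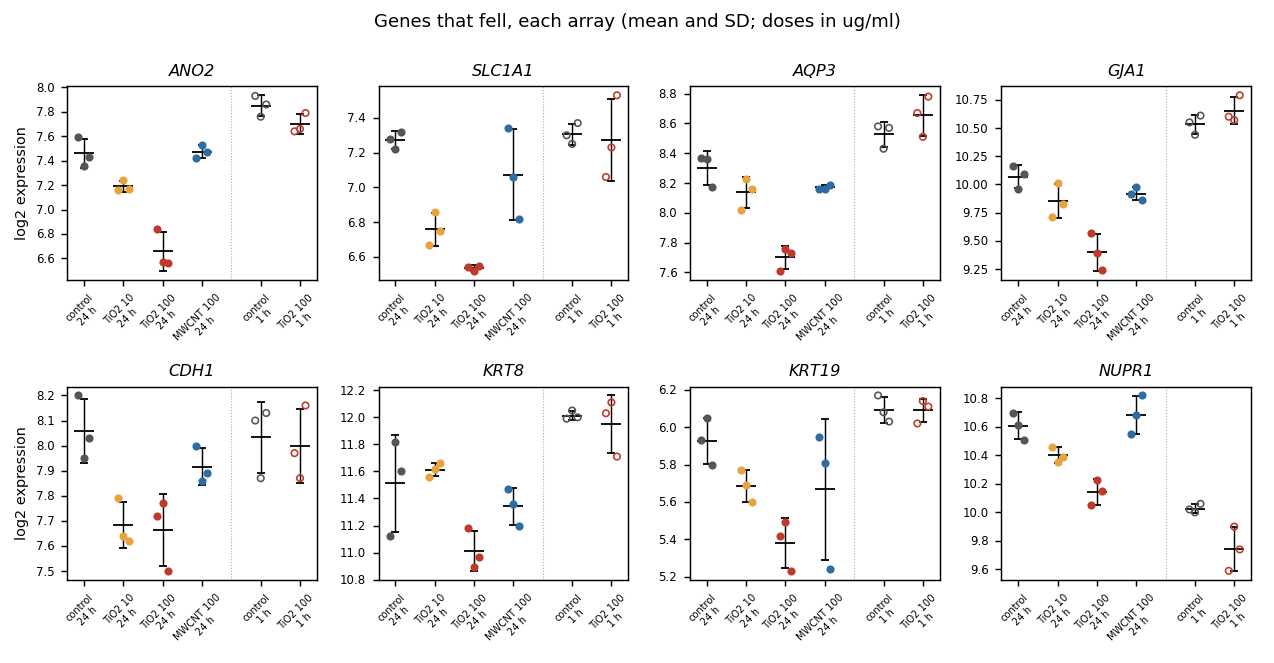
Log2 expression of 8 genes that fell, on each array (points), with group mean and SD (bars), in the 24 h groups and, right of the dotted line, the 1 h groups. TiO2 at 100 ug/ml lies below the 24 h control for all 8, with overlap of single arrays for KRT8, and CDH1 is about as low at 10 as at 100 ug/ml.

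Of 19 junction genes 4 fell, 1 rose and 14 did not pass (26.3% called against 13.2% of all genes), with a median of -0.0433 against -0.0307. GJA1, which encodes the gap junction protein connexin 43, read 10.16, 9.96 and 10.09 in the controls and 9.57, 9.39 and 9.24 after TiO2. The groups did not overlap, and GJA1 fell by 0.67 ± 0.09 (adjusted p = 0.000156, 1.59-fold). CDH1, E-cadherin of adherens junctions, read 8.20, 7.95 and 8.03 against 7.72, 7.77 and 7.50. CDH1 fell by 0.39 ± 0.08 (adjusted p = 0.00435), with a dim other probe set at -0.03. CLDN7, a tight junction claudin, fell by 0.22 ± 0.05 (adjusted p = 0.00908). The cadherin CDH3 also fell, but lost its call without any 1 TiO2 array or without control replicate 1. Its call was lost as well after cyclic loess and after median centring. CTNNB1, beta-catenin, which binds cadherins and also serves Wnt signalling, rose by 0.32 ± 0.07 (adjusted p = 0.00632).

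Of 11 keratins 5 fell, 0 rose and 6 did not pass (45.5% called, median -0.0705), with 3 lower without TiO2 replicate 3 and 2 without control replicate 2. KRT8, a keratin of simple epithelia, read 11.12, 11.82 and 11.60 in the controls and 11.18, 10.89 and 10.97 after TiO2. The lowest control lay below the highest exposed array, so these groups overlapped. KRT8 fell by 0.50 ± 0.12 (adjusted p = 0.0102), and without control replicate 2 it stood at -0.3501 (adjusted p = 0.0589). Its partner KRT18 fell by 0.30 ± 0.07 (adjusted p = 0.009), and stood at -0.2119 (adjusted p = 0.0509) without that array. KRT19, which read 5.93, 6.05 and 5.80 against 5.42, 5.49 and 5.23, fell by 0.55 ± 0.13 (adjusted p = 0.0083). PPL, periplakin of the cornified envelope, fell by 0.37 ± 0.06 (adjusted p = 0.000699). PPL was the 1 faller among 34 squamous envelope and desquamation genes, of which 2 rose (CDSN and DSC2) and 31 did not pass. That list had 8.82% called against 13.2% of all genes, with a median of 0.1347. MUC1, a transmembrane mucin, fell by 0.40 ± 0.05 (adjusted p = 9.07e-05), from 8.23, 8.26 and 8.12 to 7.89, 7.69 and 7.82.

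Of 27 genes of the ATF4 response, which answers shortage of amino acids and misfolded protein, 6 fell, 0 rose and 21 did not pass (22.2% called, median -0.1106). Of these, 26 lay above the table median, and in a fit of only the 6923 such genes 1263 were lower and 258 higher. DDIT3 and SLC7A1, among the 6, lost their calls after cyclic loess. DDIT3 also lost it without TiO2 replicate 1 or any 1 control, and SLC7A1 without TiO2 replicates 2 or 3 or control replicates 1 or 3. NUPR1, a stress-induced chromatin protein, read 10.70, 10.61 and 10.51 in the controls and 10.05, 10.23 and 10.15 after TiO2. There was no overlap, and NUPR1 fell by 0.46 ± 0.07 (adjusted p = 0.000467). SLC7A11 was described above, STC2, a secreted glycoprotein of stress, fell by 0.27 ± 0.06 (adjusted p = 0.00449) and asparagine synthetase, ASNS, by 0.17 ± 0.03 (adjusted p = 0.00365). ATF4 itself stood at -0.06 and did not pass.

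Of 16 cytoplasmic aminoacyl-tRNA synthetases, which load amino acids onto tRNA and include ATF4 targets, 4 fell, 0 rose and 12 did not pass (25.0% called, median -0.1164). The 4 became 2 without TiO2 replicate 2 or 3. All 16 lay above the table median, so the counts for such genes given for the ATF4 response apply here too. WARS1 fell by 0.25 ± 0.05 (adjusted p = 0.00258) and SARS1 by 0.18 ± 0.04 (adjusted p = 0.00654).

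Interferon-stimulated genes, which mark antiviral signalling, were called in both directions. Of 23, 7 fell, 1 rose and 15 did not pass (34.8% called, median -0.0833). The 7 became 2 without control replicate 1, 3 without TiO2 replicate 3 and 4 without TiO2 replicates 1 or 2, and 2 after cyclic loess. USP18, a protease that removes ISG15 from proteins, read 8.34, 8.09 and 8.28 in the controls and 7.85, 7.88 and 7.79 after TiO2. It fell by 0.40 ± 0.10 (adjusted p = 0.0102), without overlap. ISG15 itself fell by 0.32 ± 0.08 (adjusted p = 0.016), a call lost without control replicates 1 or 2 (-0.3046 and -0.2812, adjusted p = 0.0533 and 0.0567). IRF9, the DNA-binding subunit of the interferon-activated complex, fell by 0.27 ± 0.06 (adjusted p = 0.00809). The 1 member that rose was OAS1, by 0.26 ± 0.09 (adjusted p = 0.0468), on a dim probe set and with another at -0.07. Its call was lost without any 1 TiO2 array, without control replicates 1 or 2 and after cyclic loess.

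Calls in the lists of lipid and metal handling changed with single arrays. Of 18 cholesterol genes 4 fell, 1 rose and 13 did not pass (27.8% called against 13.2% of all genes, median -0.1389). However, 0 fell without TiO2 replicate 3 or after cyclic loess, 1 without TiO2 replicate 2 and 2 without control replicates 2 or 3. LSS, lanosterol synthase, fell by 0.27 ± 0.07 (adjusted p = 0.0182), with overlapping arrays, and lost its call without TiO2 replicates 2 or 3 or control replicate 2. Of 11 genes of iron and copper handling 4 fell and 7 did not pass (36.4% called), with 1 lower without control replicate 1 and 0 without TiO2 replicate 3. The copper importer SLC31A1 fell by 0.29 ± 0.07 (adjusted p = 0.00834), and without TiO2 replicate 3 stood at -0.2427 (adjusted p = 0.0513).

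The lists that follow had from 0% to 11.1% of members called, below the 13.2% of all genes but in part near it. Of 26 oxidative phosphorylation genes 0 passed, with differences from -0.0988 to 0.0838. Of 28 mitosis genes 2 fell (FOXM1 and MKI67) and of 33 DNA replication genes 2 fell (CDC45 and POLA1), each by under 0.2, against 8.89% of all genes lower. Each of these 4 calls was lost without any 1 of at least 4 arrays. Of 19 p53 targets 2 rose, the cell cycle inhibitor CDKN1A by 0.18 ± 0.06 and the death receptor FAS by 0.25 ± 0.06. CDKN1A lost its call without TiO2 replicates 2 or 3 or control replicates 1 or 3 (adjusted p 0.0824 to 0.158), and FAS without TiO2 replicate 1 (0.2081, adjusted p = 0.0679). Of 13 neutrophil and monocyte chemokines 1 passed, CCL2, a monocyte attractant, which rose by 0.51 ± 0.10 (adjusted p = 0.00319) from 4.64, 4.54 and 4.48, values near the bottom of the range, to 5.15, 4.93 and 5.12. CXCL8 stood at 0.60 ± 0.30 (adjusted p = 0.171). Of 19 genes of the interleukin 1 and 6 families 1 rose, IL24, whose call was lost without TiO2 replicates 1 or 2 or control replicate 2. Of 20 unfolded protein response genes 1 rose, MANF, and of 18 heat shock chaperones 1 rose (HSPE1) and 1 fell (HSPA9). MANF lost its call without any 1 of the 6 arrays, HSPE1 without TiO2 replicate 1 or control replicates 1 or 3, and HSPA9 without TiO2 replicates 1 or 3 or control replicate 1 (-0.0819). Of 29 lysosomal genes 2 fell.

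**Figure D5:**
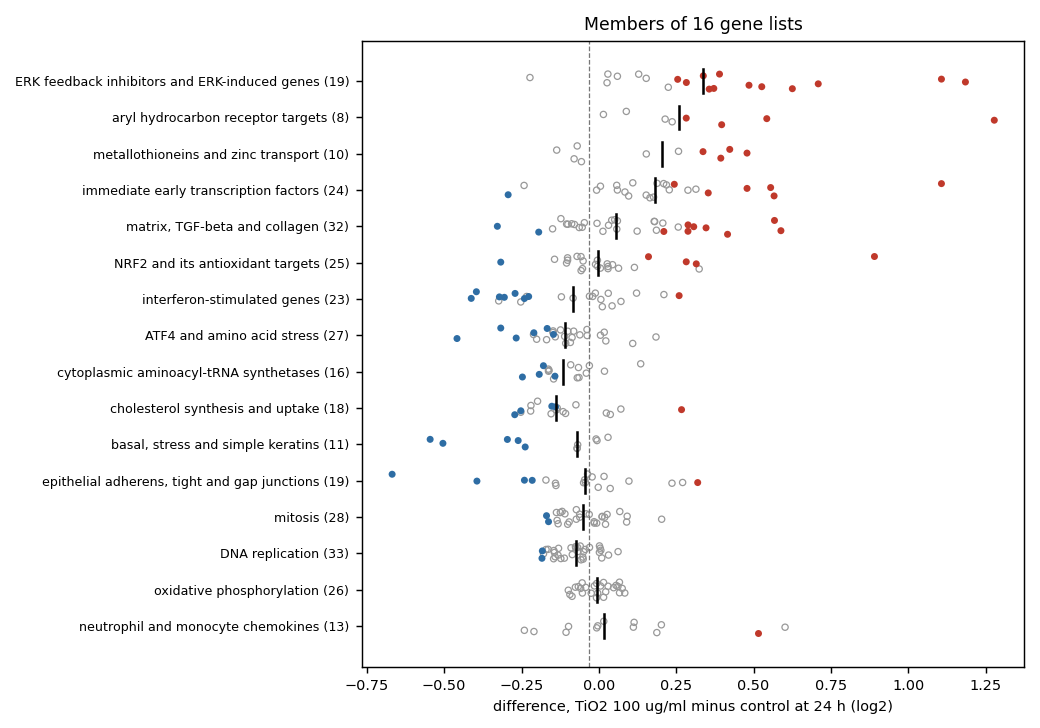
Each point is a gene, placed by its difference TiO2 100 ug/ml minus control at 24 h (log2), in 16 lists whose measured size stands in brackets; red genes rose, blue genes fell and open ones did not pass. Black bars are list medians and the dashed line is the median of all genes, -0.0307; the ERK list, at 0.3375, lies farthest to the right.

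Markers of other cells were read beside these changes. Of 15 immune markers 0 passed, and the median of the list lay between 5.1903 and 5.4654 on the control arrays and between 5.3541 and 5.5517 on the exposed ones. Of 12 fibroblast markers 2 rose (16.7% called against 13.2% of all genes), DCN and COL1A1, by 0.41 ± 0.12 and 0.35 ± 0.10. Other probe sets of COL1A1 stood from -0.18 to 0.04, and both calls were lost without control replicate 1 (DCN 0.4027, adjusted p = 0.0716, COL1A1 0.3252, adjusted p = 0.0747). Without TiO2 replicate 1 DCN stood at 0.2847 (adjusted p = 0.145), without TiO2 replicate 3 COL1A1 at 0.2695 (adjusted p = 0.124), and DCN lost its call without replicate 2 of either group too. Of 10 markers of alveolar epithelium 2 fell (20% called), LAMP3 and ABCA3, and both calls were lost without TiO2 replicates 1 or 3 or control replicates 1 or 3. The median of that list lay between 7.0358 and 7.2664 on the control arrays and between 7.1704 and 7.2502 on the exposed ones. Of 14 epithelial markers 6 fell (42.9% called), the keratins and junction genes above among them, with 3 lower without control replicate 2. Their part in the results was not tested.

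The contrast with TiO2 at 10 ug/ml asked how far the result belongs to the higher dose. ERK-induced genes (8 of 19), ABCC3, HES1 and CHI3L1 were higher at 100 than at 10 ug/ml. Of 11 keratins 2 were lower, KRT8 and KRT18, whereas KRT19 did not pass. In all 118 genes differed (0.986%), 80 higher (0.669%) and 38 lower (0.318%). Of the 514 genes higher than control at 100 ug/ml, 64 were also higher than at 10 ug/ml, and of the 1063 lower ones 35 were lower. The arrays at 100 ug/ml are shared by both contrasts, so this overlap is not separate evidence. The counts against control were 724 genes (6.05%) at 10 and 1577 at 100 ug/ml, and both use the same 3 controls. With arrays at 100 ug/ml left out the 118 became 75 (replicate 1) and 68 (replicate 2), with arrays at 10 ug/ml left out 77 (replicate 1) and 75 (replicate 3), and 30 with the 6 arrays of the doses alone.

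IER3 read 7.50, 7.59 and 7.44 at 10 ug/ml, around the controls at 7.48, 7.51 and 7.53, and differed between the doses by 1.10 ± 0.08 (adjusted p = 6.02e-09). Against control the lower dose gave 0.00 ± 0.08. ETV5 read 6.16, 6.33 and 6.33 at 10 ug/ml and differed by 1.06 ± 0.10 (adjusted p = 3.3e-07). Both genes were thus at or near the control level at 10 ug/ml and far above it at 100 ug/ml. DUSP6 differed by 0.91 ± 0.13 and SPRED2 by 0.74 ± 0.08. Of the 19 ERK genes 8 were higher at 100 than at 10 ug/ml and 0 lower, whereas against control at 10 ug/ml 0 were higher and 1 lower. Of the immediate early genes 6 of 24 were higher at the higher dose, among them JUNB (0.73 ± 0.12), JUN (0.56 ± 0.12), KLF10 (0.53 ± 0.10) and FOS (0.49 ± 0.11).

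ABCC3 read 7.92, 7.93 and 7.91 at 10 ug/ml and differed by 0.82 ± 0.05 (adjusted p = 7.99e-10), with no overlap. HES1 differed by 0.82 ± 0.10, CHST15 by 0.91 ± 0.12, CHI3L1 by 0.73 ± 0.10 and VGLL4 by 0.50 ± 0.05. TIPARP was the AhR target that differed, by 0.43 ± 0.08 (adjusted p = 0.00542). CYP1B1, at 0.63 ± 0.24 (adjusted p = 0.313), did not pass, with 0.65 ± 0.24 (adjusted p = 0.0977) at 10 ug/ml against control. The 10 ug/ml arrays averaged 10.93 ± 0.06 (SD, n = 3), near control replicates 2 and 3 (10.81 and 10.74) and far above control replicate 1 (9.30). Of the metallothioneins and zinc transporters 0 differed between the doses at adjusted p under 0.05, with MT1X at 0.24 ± 0.11.

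KRT8 read 11.56, 11.62 and 11.66 at 10 ug/ml, as high as the controls, and was lower by 0.60 at 100 ug/ml (-0.60 ± 0.12, adjusted p = 0.00946). KRT18 differed by -0.34 ± 0.07 (adjusted p = 0.0103). TNNC1, ANO2, EPHB6 and GJA1 differed by -0.54 ± 0.10, -0.53 ± 0.06, -0.48 ± 0.10 and -0.45 ± 0.09. ANO2 was already lower than control at 10 ug/ml, by -0.27 ± 0.06 (adjusted p = 0.0224), so its order was control, 10 and 100 ug/ml from high to low. CDH1 stood at -0.38 ± 0.08 and -0.39 ± 0.08 against control at 10 and 100 ug/ml, and the difference between the doses was -0.02 ± 0.08 (adjusted p = 0.967). SLC1A1 stood at -0.51 ± 0.10 and -0.73 ± 0.10, a difference of -0.22 ± 0.10 that did not pass (adjusted p = 0.442).

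The contrast with MWCNT at the same dose and time asked what set the particles apart. Against the same controls MWCNT at 100 ug/ml changed 0 genes in the limma fit (0% at adjusted p under 0.05). Unadjusted p was under 0.05 for 661 genes, where TiO2 had 3670. Tested directly, 1465 genes differed between the particles (12.2%), 544 higher with TiO2 (4.55%) and 921 lower (7.70%). Of the 514 genes that rose with TiO2, 304 were also higher than with MWCNT, and of the 1063 that fell 584 were lower. Both contrasts hold the same TiO2 arrays, so this overlap is not separate evidence. The 1465 became 607 to 898 when TiO2 replicates 1 or 3 or any 1 MWCNT array was left out, and 1354 with the 6 arrays alone.

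CYP1B1 read 10.53, 9.70 and 9.73 with MWCNT, all below the TiO2 arrays, and was higher with TiO2 by 1.57 ± 0.24 (adjusted p = 0.000255). Against control MWCNT gave -0.30 ± 0.24 and TiO2 1.28 ± 0.24. TIPARP differed by 0.74 ± 0.08 (adjusted p = 4.96e-06), CYP1A1 by 0.41 ± 0.10 and NQO1 by 0.33 ± 0.08, so the 4 AhR targets that rose against control were also those higher than with MWCNT. Among metallothioneins and zinc transporters 6 of 10 were higher with TiO2. MT1X read 12.08, 11.75 and 11.63 with MWCNT and differed by 0.70 ± 0.11 (adjusted p = 0.000255), MT2A by 0.59 ± 0.09, MT1H by 0.56 ± 0.10 and MT1G by 0.52 ± 0.08. MT1F and MT1E, given to complete the list, differed by 0.51 ± 0.12 and 0.43 ± 0.14.

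IER3 read 7.43, 7.36 and 7.06 with MWCNT and differed by 1.33 ± 0.08 (adjusted p = 1.08e-10). ETV5 differed by 1.31 ± 0.10 (adjusted p = 4.12e-09), HES1 by 1.10 ± 0.10 (adjusted p = 3.06e-07), ABCC3 by 1.01 ± 0.05 (adjusted p = 8.26e-12), ID1 by 0.91 ± 0.16 (adjusted p = 0.000798) and NRP1 by 0.90 ± 0.13 (adjusted p = 9.38e-05). Each of these 6 genes stood below its control with MWCNT, by a difference that did not pass. Of the 19 ERK genes 10 were higher with TiO2, and of the 24 immediate early genes 11 were higher and 1 lower.

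ANO2 read 7.42, 7.53 and 7.47 with MWCNT, the level of the controls, and was lower with TiO2 by 0.82 (-0.82 ± 0.06, adjusted p = 1.42e-08). TNNC1 differed by -0.63 ± 0.10, ARG2 by -0.58 ± 0.08, PCLO, a scaffold of secretory zones, by -0.57 ± 0.10 and the complement component C5 by -0.56 ± 0.11. NUPR1 differed by -0.54 ± 0.07 (adjusted p = 6.4e-05), and 7 of 27 ATF4 genes and 5 of 16 tRNA synthetases were lower with TiO2 than with MWCNT. KRT8 and KRT19, at -0.33 ± 0.12 (adjusted p = 0.0733) and -0.28 ± 0.13 (adjusted p = 0.14), did not differ at this threshold, and 0 of 11 keratins did.

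The contrast with 1 h asked which effects of TiO2 at 100 ug/ml differed between the times, each against its own controls. At 1 h 254 genes changed (2.12%), 208 higher and 46 lower, and 19 of the 514 higher and 13 of the 1063 lower genes of 24 h were called in the same direction then, with 2 and 6 called in the opposite one. The effect differed between the times for 263 genes (2.20%), 120 with the more positive effect at 24 h (1.00%) and 143 with the more negative (1.20%). The 263 became 164 and 147 without TiO2 replicates 1 and 3 at 24 h, 399 without control replicate 1 at 24 h, 143 without TiO2 replicate 3 at 1 h, 172 and 143 without control replicates 1 and 2 at 1 h, and 46 with the 12 arrays alone.

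The levels of early genes themselves differed between the times in the controls, which had been trypsinised and plated before the exposure. IER3 averaged 11.61 ± 0.05 (SD) in the 1 h controls against 7.48 to 7.53 on the 24 h controls, and HES1 10.45 ± 0.25 against 5.64 to 5.89. With TiO2 IER3 rose at both times, by 0.39 ± 0.08 at 1 h (adjusted p = 0.00709) and by 1.11 ± 0.08 at 24 h, a difference of 0.72 ± 0.12 (adjusted p = 0.000837). ETV5 stood at -0.11 ± 0.10 at 1 h, so that its effect was larger at 24 h by 1.30 ± 0.14 (adjusted p = 2.75e-06). HES1, ABCC3, CHST15, SPRED2 and SPRY4 had no call at 1 h, from -0.31 to -0.03, and their effects were more positive at 24 h by 1.01 ± 0.15, 0.92 ± 0.08, 0.85 ± 0.18, 0.81 ± 0.12 and 0.80 ± 0.17. TIPARP rose at both times, by 0.33 ± 0.08 and 0.54 ± 0.08, a difference that did not pass (0.21 ± 0.12, adjusted p = 0.356).

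Metallothioneins stood on opposite sides of their controls at the times. MT1X was at -0.21 ± 0.11 at 1 h, which did not pass, and the effect at 24 h was more positive by 0.69 ± 0.15 (adjusted p = 0.0155). Of the 10 genes for metallothioneins and zinc transport 5 had the more positive effect at 24 h and 0 the more negative.

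Named for the most negative difference between the times were GLIPR1, EGR3, FILIP1L, ANKRD1, NR4A1 and GBP1. GLIPR1, a secreted protein that serum induces, rose by 2.50 ± 0.17 at 1 h and by 0.52 ± 0.17 at 24 h (adjusted p = 0.0457), a difference of -1.99 ± 0.24 (adjusted p = 2.19e-05). The rise at 24 h was lost without any 1 TiO2 array and without control replicates 1 or 2 (adjusted p 0.0609 to 0.166). EGR3 rose by 2.14 ± 0.17 at 1 h and differed by -1.85 ± 0.25, FILIP1L, a regulator of the cytoskeleton, by -1.79 ± 0.20, the YAP target ANKRD1 by -1.70 ± 0.32, the nuclear receptor NR4A1 by -1.35 ± 0.13 and the interferon-induced GTPase GBP1 by -1.11 ± 0.18. None of these last 5 passed against control at 24 h. SRF changed sides, from 0.68 ± 0.06 higher at 1 h (adjusted p = 1.2e-07) to the fall at 24 h given above, a difference of -0.97 ± 0.09 (adjusted p = 2.46e-07). Of the genes that fell at 24 h, GJA1, AQP3, SLC1A1 and ANO2 stood from -0.15 to 0.13 at 1 h without a call, and their effects were more negative at 24 h by -0.78 ± 0.13, -0.73 ± 0.11, -0.70 ± 0.15 and -0.65 ± 0.09.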

How the data were processed

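The deposited values are log2 expression per probe set, made by the authors using robust multi-array averaging (RMA), per the submitters' processing notes; its version and the scan batches are not given in the sources used here. Of 22277 probe sets, 62 were controls, 19064 had 1 gene symbol in the platform annotation, 1043 several and 2108 none. Gene positions are left out because the probe sets name no genome build. The comparisons were fitted with limma 3.58.1 (lmFit, contrasts, eBayes, two-sided) in R 4.3.3 on all 30 arrays with 1 mean per group, with Benjamini-Hochberg adjustment over 11963 genes and a threshold of 0.05. Differences are group means on the log2 scale with the SE of the fit. The number of arrays limits the precision. The effect between the times is the interaction term. The fit was tested on simulated data.

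The gene lists, written from general knowledge, and the comparison were chosen with earlier results of these data known. Named genes are up to 15 per direction by size (6 in the other contrasts), with no overlap of the arrays and with the higher group's mean exceeding the table median, and up to 6 called members per list. Members given to complete a list, the genes called with the 6 arrays alone, and other genes set beside them were chosen after their values were seen. Lists are described by counts and medians, with no test. Alternatives changed the filter, probe set, scaling, arrays in the fit, array weights, variance model, replicate block, fold minimum and each replicate. Promoters are from RefSeq (GRCh38.p14). Figures used matplotlib 3.10.9 with numpy 2.4.6 in Python 3.11.15; tables used pandas 2.3.3, and the R packages statmod 1.5.0 and jsonlite 2.0.0 were loaded.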

Additional observations from a re-analysis of the deposited data

Results flagged for a closer look

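The effect of TiO2 at 100 ug/ml differed between 24 h and 1 h, by the interaction term of limma, for 263 genes, and the 12 named for it are given here as the effect at 24 h minus that at 1 h (log2). It was more positive at 24 h for ETV5 (1.2966), HES1 (1.0071), ABCC3 (0.9234), CHST15 (0.8481), SPRED2 (0.8121) and SPRY4 (0.7991). It was more negative for GLIPR1 (-1.9882), EGR3 (-1.8524), FILIP1L (-1.7939), ANKRD1 (-1.6955), NR4A1 (-1.3479) and GBP1 (-1.1131). The controls of the times also differ in level for most of these genes, and the part of the time in culture was not tested.

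The comparisons used no probe set whose annotation has several gene symbols or none. Of 3151 such sets, 290 were called between TiO2 at 100 ug/ml and control at 24 h in a fit of their own, 152 higher and 138 lower, from -0.7666 to 0.9564.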

How the results depend on the processing

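Numbers of genes called, in the order TiO2 at 100 ug/ml against control at 24 h (1577, of them 514 higher and 1063 lower), against 10 ug/ml (118), against MWCNT (1465) and between the times (263), moved by over 1.5 times as follows. Fits restricted to the compared groups gave 16 (11 higher, 5 lower), 30 and 46 (the contrast with MWCNT kept 1354), and with only the 24 h groups 690 lower genes and 62 between the doses. Array weights gave 3081 (1291 higher, 1790 lower), 283, 3095 and 634. Cyclic loess gave 803 (359 lower) and, against MWCNT, 811. A 1.5-fold minimum left 29 (16 and 13), 18, 33 and 74. The filter on dim genes left 258 higher genes. Leaving out 1 array gave 718 to 1513 (234 to 450 higher, 484 to 1063 lower), 68 to 135, 607 to 1061 and 143 to 399. With the replicate block the counts were 1510, 111, 1442 and 219. The labels do not say whether equal numbers mark pairs. Deviations of same-numbered exposed and control arrays correlated at -0.0108, -0.1512 and -0.0509, within the range of all 24 h pairs (-0.1524 to 0.1278). Values from so few arrays cannot decide this. The probe set with the largest interquartile range turned the sign of DSC2 (-0.1473), EPOR (-0.0487), NPC1 (0.0240), NRP1 (-0.0802) and PCLO (0.1555). Of 137 named genes called, 10 kept their call in every alternative run for them: ABCC3, ANO2, AQP3, CACNA2D3, HES1, IER3 and VGLL4 in 16, and CHI3L1, ETV5 and SLC1A1 in 15, since the filter on dim genes left these out. For the 74 higher genes with other bright probe sets the median was 0.2988 on the tested and 0.1969 on the other sets, and for 285 lower genes -0.2100 and -0.1471. Causes were not tested.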

Other observations

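Some of the largest falls belong to genes outside the named ones, because their higher group lay below the median of the table. TMEM255A, a membrane protein, averaged 5.58 in the controls and 4.67 after TiO2 at 100 ug/ml for 24 h, a difference of -0.91 ± 0.15 (limma adjusted p = 0.000699), with -0.58 at 10 ug/ml against the same controls. CLIC3, an intracellular chloride channel protein, stood at -0.68 ± 0.10 (adjusted p = 0.000334) and ABAT, which breaks down the transmitter GABA, at -0.65 ± 0.09 (adjusted p = 9.19e-05). INHBE, an activin subunit that amino acid and endoplasmic reticulum stress induce, averaged 6.81 and 6.12, a difference of -0.69 ± 0.11 (adjusted p = 0.00058). These genes were chosen after their values were seen.

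Other lists held mixed calls. Of 21 secretory and mucin defence genes 3 rose and 2 fell (23.8% called against 13.2% of all genes). BPIFA1, a secreted airway defence protein, rose by 0.40 ± 0.12 and the gel-forming mucin MUC5B by 0.32 ± 0.09, both on dim probe sets, while LCN2, an iron-scavenging defence protein, fell by 0.31 ± 0.08 and MUC1 fell as described. BPIFA1 lost its call without TiO2 replicate 3 or control replicates 1 or 2, MUC5B without TiO2 replicates 1 or 2 or control replicate 1, and LCN2 without TiO2 replicate 3 or control replicate 1. Of 24 hypoxia and glycolysis genes 2 rose and 3 fell (20.8% called), and NDRG1, a stress-responsive gene of the list, fell by 0.34 ± 0.07 (adjusted p = 0.00552). In endocytosis and membrane traffic FLOT1, a lipid raft scaffold, rose by 0.41 ± 0.06 (adjusted p = 0.000345), from 9.87, 9.99 and 10.06 to 10.41, 10.36 and 10.37, with its other probe sets from 0.42 to 0.50. In that list 1 of 25 genes rose and 3 fell (16% called). FLOT1 also differed from TiO2 at 10 ug/ml by 0.39 ± 0.06 (adjusted p = 0.0011) and from MWCNT by 0.54 ± 0.06.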
